A study of Mus musculus with 9 samples.

Results

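The DNA replication and S phase genes are 30 genes, taken by symbol from an expression table of 10340 genes, in which all 30 had a row. The cells were NIH 3T3, a permanent line of mouse fibroblasts first grown from embryos. They carried lentiviruses that express a short hairpin RNA (shRNA) and had been selected for it. The shControl cells carried a hairpin against RFP, a gene that these cells lack, and the shCNKSR2_1 and shCNKSR2_2 cells carried 1 of 2 hairpins of different sequence against Cnksr2. Each of the 3 groups was 3 independent cultures grown as monolayers on plastic, for 9 libraries in all, so every group, the controls included, was infected and selected. Cnksr2 itself is not analysed here, so the depth of its knockdown is not known for any library. The series title places the gene among X-linked tumour suppressors that escape X inactivation, and the comparisons ask how the fibroblast transcriptome differs under each hairpin.

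Chromosome replication is prepared in G1, when the origin recognition complex, CDC6 and CDT1 load the ring of MCM2 to MCM7 onto DNA. At the start of S phase CDC45 and the GINS complex join that ring to make the active helicase, polymerase alpha with its primase lays down primers, and polymerases epsilon and delta extend them on the PCNA clamp. Many of these genes are transcribed in late G1 by E2F factors released from the retinoblastoma protein, whereas mitotic genes peak later through promoters with CHR and CCAAT elements. In growing fibroblasts the mRNA of such genes depends on how many cells are cycling, and in bulk libraries fewer cells in S phase and less RNA per cell cannot be told apart.

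E2F motifs were looked for in RefSeq promoters (GRCm38.p6, from 250 bases before to 50 after the gene start), because E2F factors are known regulators of many of these genes. A promoter was found for 24 of the 30 genes. The motif was TTTCCCGC, TTTCGCGC, TTTGCCGC or TTTGGCGC on either strand, where neighbouring matches may overlap. It was present for 10 of the 24 genes (41.7%): Mcm3, Mcm5, Mcm6, Mcm7, Cdc6, Cdt1, Pola1, Rfc3, Lig1 and Uhrf1. The share was 31.3% among 67 other replication genes, 3.57% among 28 mitotic genes, 5.16% among the 7891 genes of the expression table with a promoter and 2.6% among all 27025 genes of the promoter table. A match is a description of letters and not evidence of binding. The 4 promoters printed here hold the motif in capitals and belong to genes that behaved differently in the comparisons: Cdc6 fell with both hairpins, Mcm6 fell and Cdt1 rose with shCNKSR2_2, and Mcm5 passed no test. All are written 5′ to 3′ on the gene's own strand, and capitals run together where matches overlap.
Cdc6: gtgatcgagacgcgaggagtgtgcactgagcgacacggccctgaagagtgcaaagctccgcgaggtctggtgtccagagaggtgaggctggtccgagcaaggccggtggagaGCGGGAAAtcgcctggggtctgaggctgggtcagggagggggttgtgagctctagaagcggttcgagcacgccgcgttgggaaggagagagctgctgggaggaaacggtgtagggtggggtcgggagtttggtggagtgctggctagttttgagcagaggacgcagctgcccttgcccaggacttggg
Mcm6: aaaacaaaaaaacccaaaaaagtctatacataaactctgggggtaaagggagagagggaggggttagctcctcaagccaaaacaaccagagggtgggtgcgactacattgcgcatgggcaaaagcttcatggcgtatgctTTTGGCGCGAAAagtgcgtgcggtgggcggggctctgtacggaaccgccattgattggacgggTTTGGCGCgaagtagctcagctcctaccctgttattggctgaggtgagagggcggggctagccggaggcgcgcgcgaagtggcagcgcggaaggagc
Cdt1: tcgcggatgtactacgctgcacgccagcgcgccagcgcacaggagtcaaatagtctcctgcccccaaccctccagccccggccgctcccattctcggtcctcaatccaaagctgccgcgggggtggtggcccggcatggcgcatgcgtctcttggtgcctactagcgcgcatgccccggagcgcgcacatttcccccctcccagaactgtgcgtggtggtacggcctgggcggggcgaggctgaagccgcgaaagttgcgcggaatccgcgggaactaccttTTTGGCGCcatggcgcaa
Mcm5: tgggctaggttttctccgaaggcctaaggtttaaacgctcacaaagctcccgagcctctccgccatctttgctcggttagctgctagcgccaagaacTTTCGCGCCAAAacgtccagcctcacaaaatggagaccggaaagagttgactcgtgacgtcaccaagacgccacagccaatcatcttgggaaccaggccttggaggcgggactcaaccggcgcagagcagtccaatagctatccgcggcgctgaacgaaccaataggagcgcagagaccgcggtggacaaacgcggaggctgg
The Cdc6 window lies at chr11:98907901-98908200 on the + strand, with 1 match that starts at position −138 from the gene start. The Mcm6 window lies at chr1:128359656-128359955 on the − strand, with matches starting at −110, −106 and −47. The Cdt1 window lies at chr8:122567765-122568064 on the + strand, with 1 match at position 33, after the start. The Mcm5 window lies at chr8:75109259-75109558 on the + strand, with overlapping matches at −153 and −149.

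The CHR motif (TTTGAA, either strand) was in 12.5% of the 24 S phase promoters against 75% of the 28 mitotic ones and 13.7% of the measured genes. The CCAAT box (CCAAT, either strand) was in 62.5%, 78.6% and 44.1%. Among the 10 genes with an E2F motif, 0 rose and 2 fell with shCNKSR2_1, and 1 rose and 2 fell with shCNKSR2_2. Among the 14 without an E2F motif, the counts were 0 and 2, then 2 and 2. Between the hairpins, 1 of the 10 and 5 of the 14 were higher in shCNKSR2_2 and 0 of either were lower. By the same test (limma, adjusted p under 0.05), 13.6% of all genes of the table rose and 19.3% fell with shCNKSR2_1, 20.0% rose and 28.2% fell with shCNKSR2_2, and 9.13% were higher between the hairpins, and with so few genes on either side nothing is read from these counts about the motif.

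**Figure D1:**
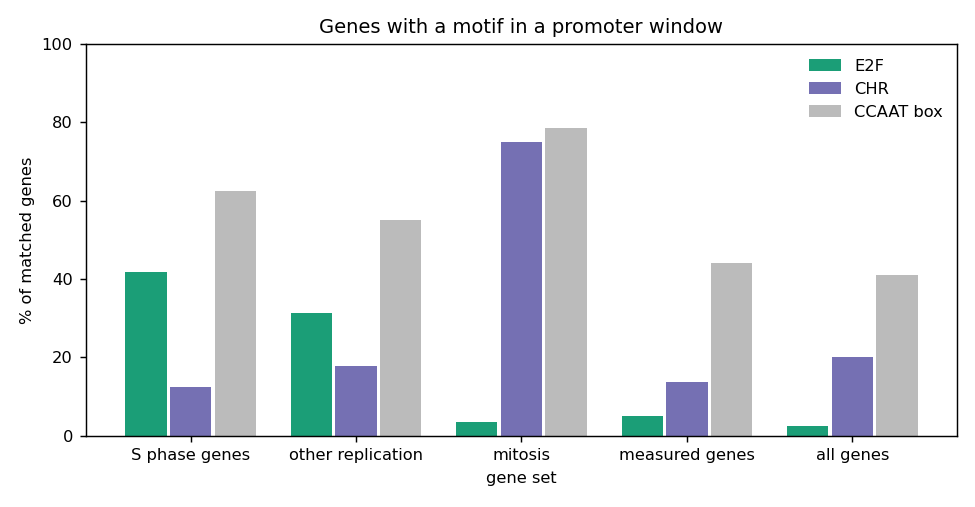
Share of genes (y axis, % of genes with a RefSeq promoter) whose promoter window holds an E2F, CHR or CCAAT motif, for the S phase genes, the other replication genes, the mitotic genes, the measured genes and all genes. E2F motifs were found for 41.7% of the S phase genes and 3.57% of the mitotic genes, and CHR motifs for 12.5% and 75%.

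In the control cells the 30 genes spanned a wide range of levels, given here as FPKM, fragments scaled for transcript length and for the size of the library. Pcna, the sliding clamp, was the highest at 230 ± 0.258 FPKM (SD, n = 3), followed by the helicase subunit Mcm7 at 102 ± 3.21 FPKM and the ribonucleotide reductase subunit Rrm2 at 95.6 ± 0.457 FPKM. The 6 subunits of the MCM ring are present in equal number in the complex, yet their mRNA levels ran from 51.5 FPKM for Mcm5 to 102 FPKM for Mcm7. Cdc6, the loading factor, was the lowest of all at 12.1 ± 0.378 FPKM. Several neighbours in this order did not differ beyond their spread: Mcm2 and Uhrf1 overlapped (59.3 to 64.0 and 58.6 to 61.9 FPKM), as did E2f1 and Mcm10 (16.7 to 18.2 and 17.1 to 17.4 FPKM).

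The genes varied little between cultures. Their median coefficient of variation was 2.82% in shControl, 4.86% in shCNKSR2_1 and 3.07% in shCNKSR2_2, against 3.71%, 4.84% and 3.38% over all genes. Replicate 1 of shCNKSR2_1 was the lowest of its group for 21 of the 30 genes. Relative to the control mean, the median of the 30 genes was −0.14 on the log2 scale in that library, with 29 of 30 genes below the control mean, and −0.06 in each of the group's other 2 libraries, with 22 of 30 below in each. On the first principal component of all genes (67.5% of the variance) that library lay at −1.71, nearer to the controls (−16.9 to −16.1) than its 2 group members at 4.63 and 5.98, while shCNKSR2_2 lay between 13.4 and 13.8.

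Total FPKM per library ran from 437208 to 450776, and read depth is unknown because the table holds no counts. The slope of a gene's deviation from its group mean on transcript GC content was positive in shControl replicate 3, shCNKSR2_1 replicate 3 and shCNKSR2_2 replicate 1 (0.054 to 0.072 log2 per 10 GC points) and negative in the other 6 libraries (−0.040 to −0.025). Those 3 libraries were the highest of their groups for 15, 17 and 18 of the 30 genes. All 9 fibroblast markers looked for were measured, led by S100a4 and Vim; of 11 markers of epithelial, immune, endothelial, neuronal and muscle cells only Cd68 and Tubb3 were in the table, with Tubb3 at 2.32 ± 0.0692 FPKM in the controls and 4.56 ± 0.272 FPKM with shCNKSR2_2. Of the 9 fibroblast markers, 3 rose and 2 fell with shCNKSR2_1, 3 rose and 5 fell with shCNKSR2_2, and 1 was higher and 7 lower in shCNKSR2_2 than in shCNKSR2_1. The part of these differences in the results below was not tested.

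**Figure D2:**
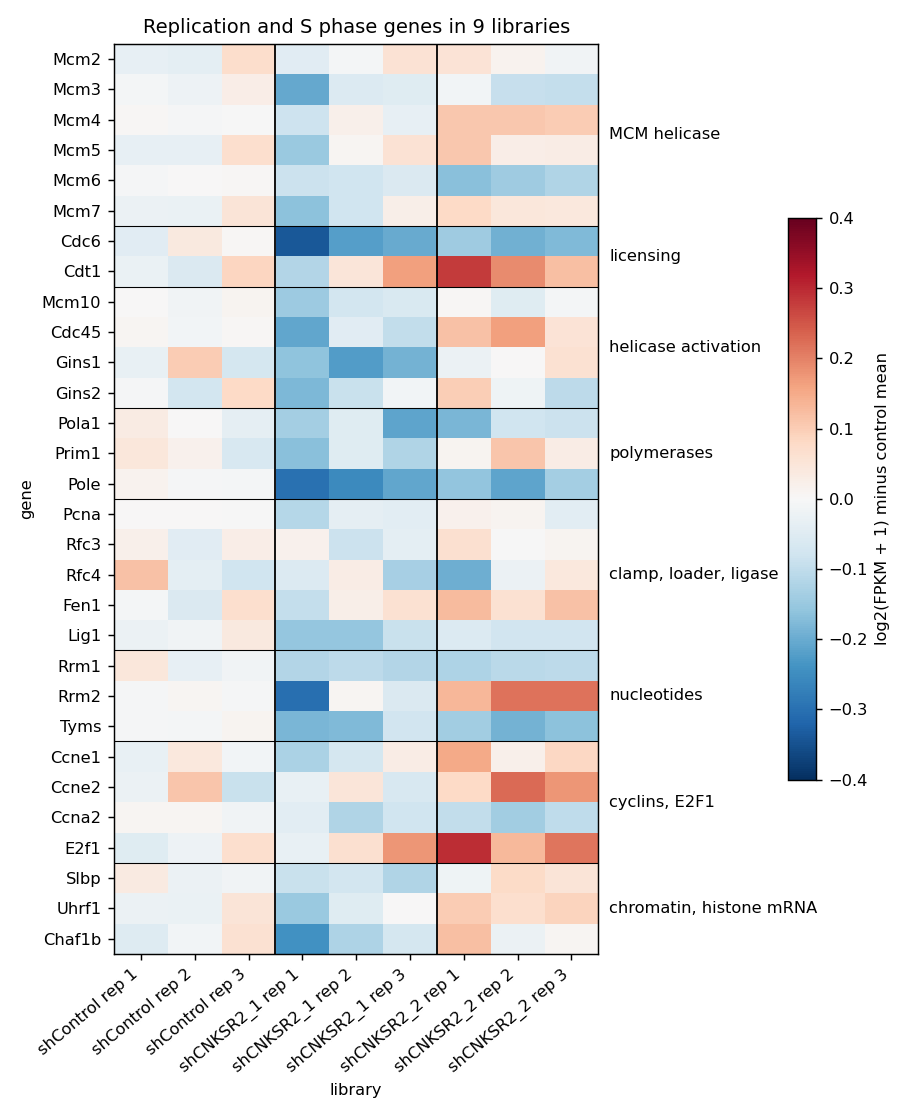
Difference of log2(FPKM + 1) from the control mean for each of the 30 genes (rows) in each of the 9 libraries (columns, grouped by hairpin). Replicate 1 of shCNKSR2_1 is below the control mean for 29 of the 30 genes, and the shCNKSR2_2 libraries hold genes on both sides.

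With shCNKSR2_1, 6 of the 30 genes fell and 0 rose against shControl. The genes that fell were Cdc6, Gins1, Pole, Lig1, Rrm1 and Tyms, by 7.65% to 17.5% in mean FPKM. With limma on log2(FPKM + 1) and Benjamini-Hochberg adjusted p under 0.05, 32.8% of all genes were called in this comparison, 13.6% as higher and 19.3% as lower, so 6 of 30 lower (20.0%) is near the background. At an unadjusted p under 0.05, 0 of the 30 genes were higher and 15 were lower. Of all 10340 genes, 1861 were higher and 2713 lower at that unadjusted threshold. The estimates leaned to one side: 27 of 30 were negative, beside 5962 of all 10340 genes. Their median was −0.09 on the log2 scale beside −0.02 over all genes. The 30 estimates come from the same libraries, so the count of signs is not a test.

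With shCNKSR2_2, 11 of the 30 genes changed, 5 upwards and 6 downwards. Mcm4, Cdt1, Rrm2, Ccne2 and E2f1 rose, and Mcm6, Cdc6, Pole, Rrm1, Tyms and Ccna2 fell. The background was higher here, with 48.2% of all genes called, 20.0% as higher and 28.2% as lower, against 36.7% of the 30. Their median log2 fold change was 0.02 beside −0.03 over all genes. Of their estimates 17 were positive and 13 negative, beside 4488 and 5852 over all genes. Leaving out shControl replicate 1 brought the count from 11 to 6 (1 higher, 5 lower), and leaving out shCNKSR2_2 replicate 2 also brought it to 6. Calls over all genes fell as well, from 4984 to 4181 and 4153. Rescaling moved the split between directions: it was 8 higher and 4 lower after median-ratio rescaling, 9 and 7 after removal of the GC trend and 9 and 2 after removal of the local trend of neighbouring genes. Over all genes the split of higher and lower calls became 2460 and 2424 after median-ratio rescaling, where 2066 and 2918 were called without it. For shCNKSR2_1 it became 1794 and 1564, from 1405 and 1991.

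Directly compared, shCNKSR2_2 was above shCNKSR2_1 for 8 of the 30 genes and below it for 0. The 8 were Mcm4, Cdc45, Gins1, Prim1, Rrm2, Slbp, Uhrf1 and Chaf1b, higher by 9.75% to 23.4% in mean FPKM. In this comparison 20.5% of all genes were called, 9.13% as higher and 11.4% as lower, so the share of the 30 called higher (26.7%) was above the background share. The 30 genes were chosen with earlier results of these data known, so that excess is a description and not a test. At an unadjusted p under 0.05, 15 of the 30 were higher and 1 was lower. Of all 10340 genes, 1693 were higher and 1858 lower at that unadjusted threshold. Of the 30 estimates, 26 were positive, beside 5145 of all 10340 genes, and their median was 0.09 beside −0.0006 over all genes. Without shCNKSR2_1 replicate 1, the library with low S phase genes, 5 genes were called instead of 8; without shCNKSR2_2 replicates 2 or 3 the counts were 3 and 2. Calls over all genes also fell, from 2121 to 1613 without shCNKSR2_1 replicate 1, and to 1231 and 1208 without shCNKSR2_2 replicates 2 and 3 in turn.

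All of these changes were small. None of the 30 genes changed by 1.5-fold in any comparison (0 of 30). Of all 10340 genes, 231 were called with at least a 1.5-fold change with shCNKSR2_1 and 458 with shCNKSR2_2. Changes of that size were thus rare in the whole table too. For the members that passed no test, the 95% intervals reached at most 0.26 on the log2 scale with shCNKSR2_1, 0.22 with shCNKSR2_2 and 0.32 in the direct comparison. In all, 18 of the 30 genes were called in at least 1 comparison and 12 in none. The same count was not made over all genes, so nothing is read from these 2 numbers. The 2 comparisons with shControl share the same 3 control libraries.

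**Figure D3:**
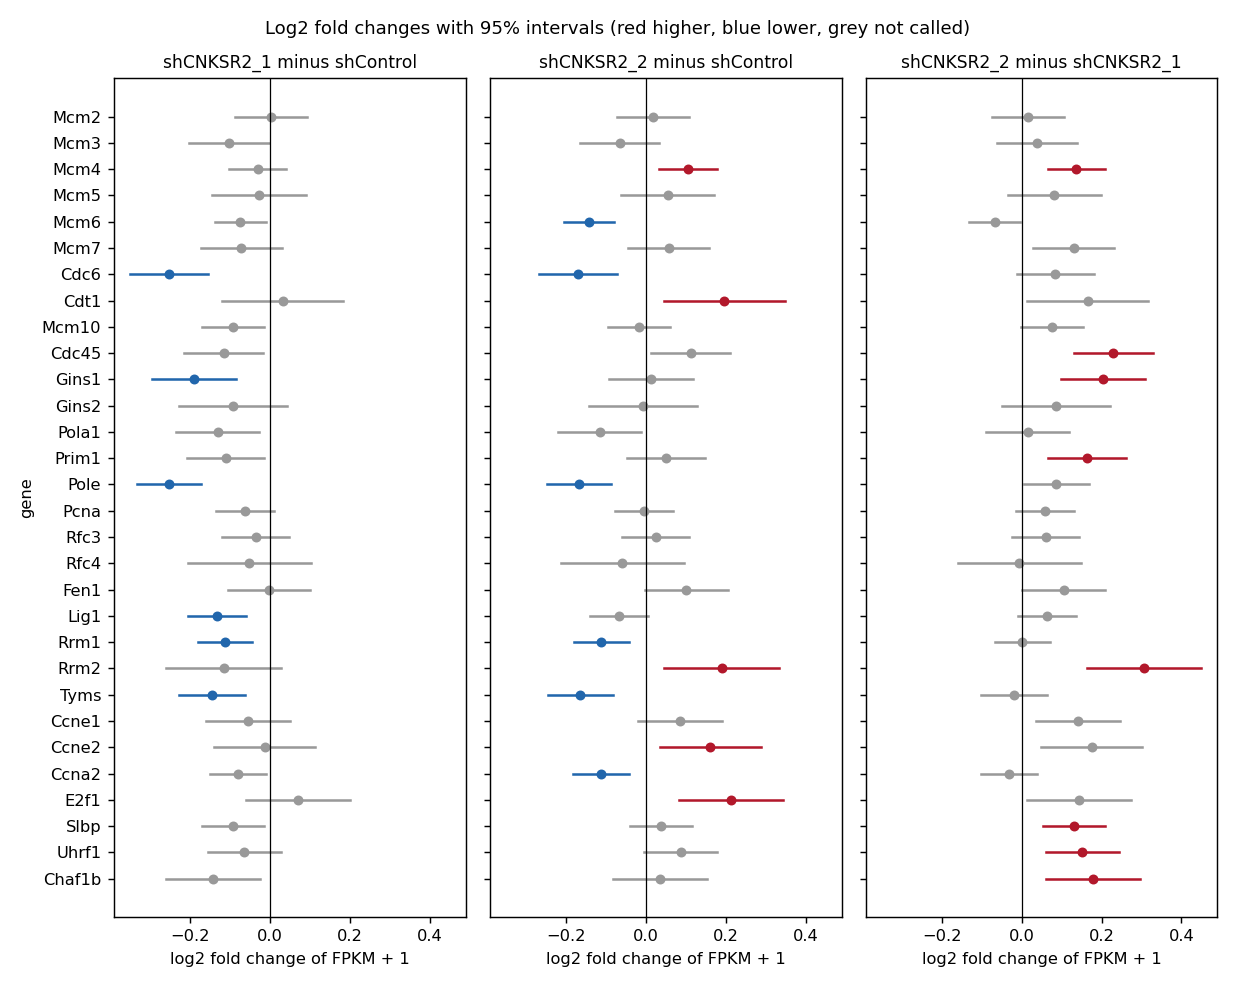
Log2 fold change of FPKM + 1 (x axis) with 95% intervals for the 30 genes (y axis) in the 3 comparisons; red marks genes called higher, blue genes called lower and grey genes that were not called. The 6 calls with shCNKSR2_1 are lower, the 11 with shCNKSR2_2 are on both sides, and the 8 between the hairpins are higher in shCNKSR2_2.

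The MCM ring, the core of the replicative helicase, moved little and not as a block. Mcm4 stood at 81.8, 81.3 and 81.4 FPKM in shControl, 76.9, 82.7 and 79.6 in shCNKSR2_1 and 87.8, 87.8 and 87.5 in shCNKSR2_2. All 3 shCNKSR2_2 libraries lay above every other library. The means differed by 0.10 on the log2 scale over shControl (SE 0.03, adjusted p = 0.0216) and 0.14 over shCNKSR2_1 (SE 0.03, adjusted p = 0.0147). The first of these calls was lost without any 1 of 4 libraries (shControl replicates 1 or 2, shCNKSR2_2 replicates 2 or 3; adjusted p 0.0544 to 0.0637), and the call between hairpins without shCNKSR2_2 replicates 2 or 3 (0.0534 to 0.0556). Its partner Mcm6 had the same level in the controls to within 1 FPKM and went the other way, from 82.2 ± 0.312 FPKM in shControl to 78.0 ± 0.840 in shCNKSR2_1 and 74.3 ± 1.16 in shCNKSR2_2. No 2 of these 3 groups overlapped, but the fall passed the test only with shCNKSR2_2 (log2 −0.14, SE 0.03, adjusted p = 0.00207; adjusted p = 0.0689 with shCNKSR2_1). With the trend of the neighbouring genes removed the Mcm6 fall was −0.08 (adjusted p = 0.0665). Mcm2, Mcm3, Mcm5 and Mcm7 passed no test, with log2 fold changes between −0.10 (Mcm3 with shCNKSR2_1) and 0.13 (Mcm7 between the hairpins).

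The 2 licensing factors, which load the MCM ring in G1, also parted. Cdc6 was 11.7, 12.4 and 12.1 FPKM in shControl, 9.32, 10.2 and 10.4 in shCNKSR2_1 and 10.8, 10.4 and 10.6 in shCNKSR2_2. Every library of both hairpins lay below every control. Cdc6 fell by 0.25 on the log2 scale with shCNKSR2_1 (SE 0.04, adjusted p = 0.00143) and by 0.17 with shCNKSR2_2 (SE 0.04, adjusted p = 0.00855). The 20 measured genes around Cdc6 on its chromosome also leaned down, with medians of −0.20 and −0.26. The local trend that was subtracted is the mean deviation of these genes and not the median given here. After that subtraction the shCNKSR2_1 fall was still called, while the shCNKSR2_2 value became 0.012 (adjusted p = 0.853). Across all 20 alternatives the shCNKSR2_1 value ran from −0.34 to −0.17. Cdt1, which geminin holds inactive outside G1, was 33.9 ± 1.86 FPKM in shControl, 34.8 ± 3.46 in shCNKSR2_1 and 39.0 ± 2.22 in shCNKSR2_2. It rose with shCNKSR2_2 (log2 0.20, SE 0.07, adjusted p = 0.0351), a call lost without any 1 of 4 libraries (shControl replicates 1 or 2, shCNKSR2_2 replicates 1 or 2; adjusted p 0.0735 to 0.123).

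Among the 4 origin-firing genes, the helicase cofactors Cdc45 and Gins1 separated the hairpins from each other. Cdc45 was 26.8, 26.5 and 26.8 FPKM in shControl, 23.0, 25.9 and 24.9 in shCNKSR2_1 and 29.0, 30.02 and 27.8 in shCNKSR2_2. The 3 groups did not overlap, and shCNKSR2_2 exceeded shCNKSR2_1 by 0.23 on the log2 scale (SE 0.04, adjusted p = 0.0055), while neither hairpin differed from shControl at the threshold (adjusted p = 0.0673 and 0.0606). That call was lost without the 3 libraries of positive GC slope (adjusted p = 0.059). Gins1, a GINS subunit, was 14.4, 15.9 and 14.0 FPKM in shControl, 13.1, 12.5 and 12.8 in shCNKSR2_1 and 14.5, 14.8 and 15.4 in shCNKSR2_2. The shCNKSR2_1 libraries lay below all 6 others. Gins1 fell by 0.19 against shControl (SE 0.05, adjusted p = 0.0105) and was higher by 0.20 in shCNKSR2_2 than in shCNKSR2_1 (SE 0.05, adjusted p = 0.0129; 0.0611 without shCNKSR2_2 replicate 3). Gins2 and Mcm10, another GINS subunit and a helicase activator, passed no test.

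Of the polymerase genes, Pole, the catalytic subunit of the leading-strand polymerase epsilon, had the lowest p of the 30 genes with shCNKSR2_1. It was 16.8, 16.6 and 16.5 FPKM in shControl, 13.4, 13.8 and 14.3 in shCNKSR2_1 and 14.8, 14.3 and 15.1 in shCNKSR2_2. The controls lay above all 6 other libraries. Pole fell by 0.25 on the log2 scale (SE 0.04, adjusted p = 0.000477) with shCNKSR2_1 and by 0.17 (SE 0.04, adjusted p = 0.00343) with shCNKSR2_2; the latter was not called with the neighbouring trend removed (adjusted p = 0.0581). Pola1, the catalytic subunit of polymerase alpha, lay just outside the threshold at −0.13 (adjusted p = 0.0538) and −0.12 (adjusted p = 0.0635). Prim1, the primase subunit that starts each primer, was higher in shCNKSR2_2 than in shCNKSR2_1 (41.5 ± 1.59 against 37.0 ± 1.57 FPKM; log2 0.16, SE 0.04, adjusted p = 0.0251), a call lost without any 1 of 4 libraries (shCNKSR2_1 replicates 1 or 3, shCNKSR2_2 replicates 2 or 3; 0.0616 to 0.106).

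The clamp, its loader and the enzymes that join Okazaki fragments were the quietest group. Pcna, the clamp, was 221 ± 6.62 FPKM in shCNKSR2_1 and 230 ± 5.17 in shCNKSR2_2, and its log2 fold changes were −0.06 (adjusted p = 0.166) and −0.01 (adjusted p = 0.906). The clamp loader subunits Rfc3 and Rfc4 and the flap nuclease Fen1 passed no test either. Lig1, the ligase that seals the fragments, fell with shCNKSR2_1 from 51.4 ± 1.21 to 46.8 ± 1.23 FPKM (log2 −0.13, SE 0.03, adjusted p = 0.0107; −0.07, adjusted p = 0.0951 with the neighbouring trend removed) and was 49.0 ± 0.471 FPKM in shCNKSR2_2 (adjusted p = 0.108).

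Of the 3 nucleotide-supply genes, Rrm2 alone was called between the hairpins, with the largest difference of the 30 genes. Rrm2, the regulated small subunit of ribonucleotide reductase, was 95.3, 96.1 and 95.4 FPKM in shControl, 77.5, 96.0 and 91.9 in shCNKSR2_1 and 104.9, 111.3 and 111.4 in shCNKSR2_2. All shCNKSR2_2 libraries lay above the rest, and replicate 1 of shCNKSR2_1 was far below its group. Rrm2 was higher in shCNKSR2_2 than in shCNKSR2_1 by 0.31 on the log2 scale (SE 0.07, adjusted p = 0.0085), a call kept in all 20 alternatives with sizes from 0.21 to 0.49. The rise over shControl was 0.19 (SE 0.07, adjusted p = 0.033) and was lost without any 1 of 5 libraries (all 3 controls, shCNKSR2_2 replicates 2 or 3; 0.07 to 0.0956).

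Its partner Rrm1, the large catalytic subunit, went down instead. Rrm1 was 90.3, 85.5 and 86.5 FPKM in shControl, 80.6, 81.2 and 80.5 in shCNKSR2_1 and 80.2, 81.0 and 81.3 in shCNKSR2_2. Both hairpins lay below every control by a like amount, 0.11 on the log2 scale (SE 0.03 for each, adjusted p = 0.0172 and 0.0122). The difference between them was 0.0013 with a 95% interval from −0.07 to 0.07. Both calls were lost without shControl replicate 1 (adjusted p = 0.0827 and 0.0622) and after median-ratio rescaling (0.059 and 0.0537). Tyms, thymidylate synthase, was 18.8, 18.8 and 19.1 FPKM in shControl, 16.6, 16.6 and 17.9 in shCNKSR2_1 and 17.1, 16.5 and 16.8 in shCNKSR2_2. It fell by 0.15 (SE 0.04, adjusted p = 0.0128) and 0.16 (SE 0.04, adjusted p = 0.00423), the controls lying above all other libraries; with the neighbouring trend removed the latter fall was not called (adjusted p = 0.0645).

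**Figure D4:**
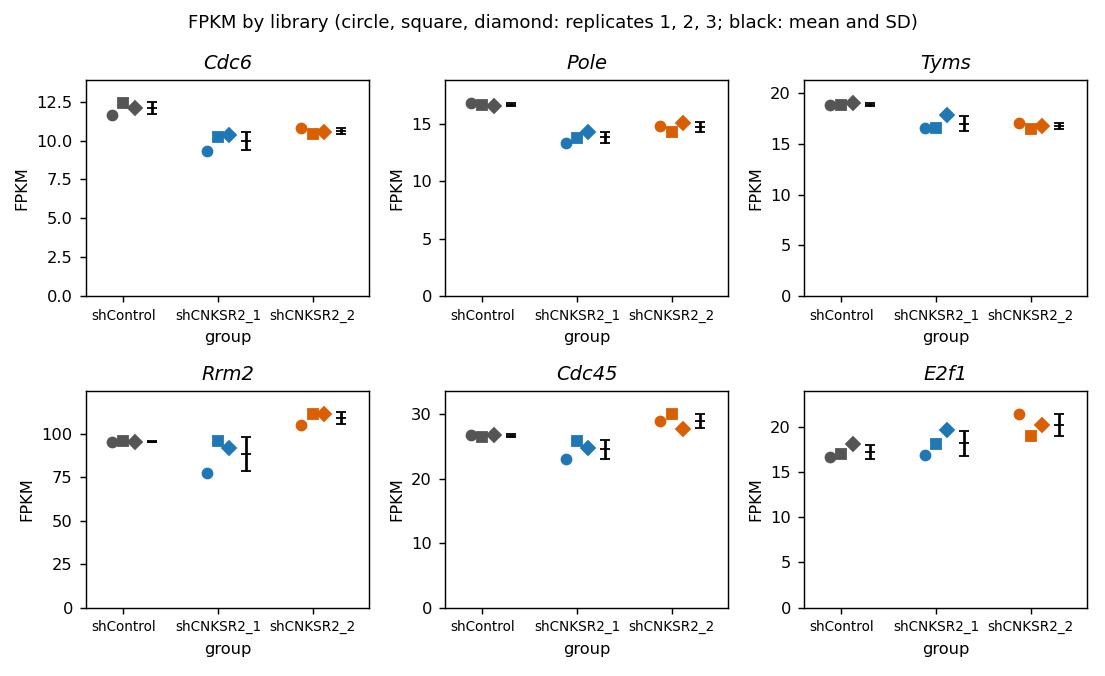
FPKM (y axis, from 0) in each library for Cdc6, Pole, Tyms, Rrm2, Cdc45 and E2f1, with the group mean and SD in black (n = 3 cultures per group). Cdc6, Pole and Tyms lie below the controls under both hairpins, while Rrm2 and Cdc45 are highest in shCNKSR2_2.

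Among the cyclins and E2f1, 3 of 4 genes were called with shCNKSR2_2 and 0 with shCNKSR2_1, beside 48.2% and 32.8% of all genes. The difference between the hairpins passed the test for 0 of the 4, beside 20.5% of all genes. At an unadjusted p under 0.05, 0 were higher and 1 lower with shCNKSR2_1, and 3 higher and 0 lower between the hairpins. Nothing is read from counts over 4 genes. E2f1, the activator at the head of the G1/S programme, was 16.7, 17.0 and 18.2 FPKM in shControl, 16.9, 18.1 and 19.7 in shCNKSR2_1 and 21.5, 19.0 and 20.2 in shCNKSR2_2. Controls and shCNKSR2_2 did not overlap, and shCNKSR2_1 overlapped both. E2f1 rose with shCNKSR2_2 by 0.21 (SE 0.06, adjusted p = 0.0123; 0.0504 without shCNKSR2_2 replicate 1), while its difference between the hairpins was 0.14 (adjusted p = 0.112). Ccne2, a cyclin E that drives S phase entry, rose by 0.16 (SE 0.06, adjusted p = 0.0379) although its groups overlapped, and lost the call without any 1 of 4 libraries (shControl replicates 1 or 3, shCNKSR2_2 replicates 2 or 3; 0.101 to 0.137). Ccne1, the other cyclin E, passed no test, its nearest value being 0.14 between the hairpins (adjusted p = 0.0596). Ccna2, the cyclin of S phase and G2, fell with shCNKSR2_2 from 90.1 ± 0.806 to 83.2 ± 1.33 FPKM (log2 −0.11, SE 0.03, adjusted p = 0.0132; 0.0601 without shCNKSR2_2 replicate 2, 0.0559 after median-ratio rescaling) and was 85.2 ± 2.38 FPKM in shCNKSR2_1.

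The 3 genes of chromatin made during S phase were higher in shCNKSR2_2 than in shCNKSR2_1, and none was called against shControl. Of all genes, 9.13% were called higher between the hairpins, and 32.8% and 48.2% were called against shControl. Slbp, which binds the stem-loop of replication-dependent histone mRNAs, was 42.5 ± 0.687 and 46.7 ± 1.57 FPKM (log2 0.13, SE 0.04, adjusted p = 0.0242). Uhrf1, which brings DNA methylation to new strands, was 57.0 ± 3.01 and 63.4 ± 0.756 FPKM (log2 0.15, SE 0.04, adjusted p = 0.0262). Chaf1b, a subunit of the chromatin assembly factor CAF-1, was 24.8 ± 1.56 and 28.2 ± 1.53 FPKM (log2 0.18, SE 0.05, adjusted p = 0.0365). The control means lay between: 45.5, 59.7 and 27.5 FPKM. Slbp lost its call without any 1 of 3 libraries (shCNKSR2_1 replicate 3, shCNKSR2_2 replicates 2 or 3; 0.0702 to 0.105). Uhrf1 lost it without any 1 of 4 (shCNKSR2_1 replicate 1, all 3 of shCNKSR2_2; 0.0636 to 0.0828), and Chaf1b without any 1 of 6 (shControl replicate 2, shCNKSR2_1 replicates 1 or 2, all 3 of shCNKSR2_2; 0.0509 to 0.117).

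The wider replication machinery was read from a list of 82 other genes, 79 of them measured. With shCNKSR2_1, 4 rose and 33 fell (median −0.10); with shCNKSR2_2, 11 rose and 27 fell (median −0.04); between the hairpins 11 were higher and 4 lower in shCNKSR2_2 (median 0.05). The shares called were 46.8%, 48.1% and 19.0%, beside 32.8%, 48.2% and 20.5% of all genes, so the last 2 were near the background. This list was likewise chosen with earlier results of these data known. With shCNKSR2_2 the split became 21 higher and 18 lower with the neighbouring trend removed, and was 14 and 20 after quantile normalization and 16 and 22 with the GC trend removed. For shCNKSR2_1 the split was 8 and 30 with the GC trend removed, and between the hairpins it was 22 and 4. Tk1, the thymidine kinase of the salvage route, fell from 123 ± 5.63 FPKM to 92.3 ± 7.93 and 94.7 ± 2.16 (log2 −0.41 and −0.37, SE 0.06, adjusted p = 0.000347 and 0.00034). Its 20 neighbouring genes had medians of −0.20 and −0.25. Both Tk1 calls stood with the mean deviation of those genes, not the median, subtracted. Pole4, a small accessory subunit of polymerase epsilon, rose by 0.27 with each hairpin (SE 0.05, adjusted p = 0.00149 and 0.000927) while the catalytic Pole fell. Tfdp2, a dimer partner of E2F factors, fell by 0.39 with each (SE 0.05, adjusted p = 0.000234 and 0.000115), calls lost with the neighbouring trend removed (0.195 and 0.0738).

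Of the 12 fork protection and recombination genes measured, 0 rose and 9 fell with shCNKSR2_1, and again 0 rose and 9 fell with shCNKSR2_2, with medians of −0.20 and −0.14; at an unadjusted p under 0.05 the counts were likewise 0 and 9. That is 75.0% of the list called lower in each, beside 19.3% and 28.2% of all genes. These 12 genes are part of the 79 other replication genes above, so their falls are counted there too. The list was chosen with earlier results of these data known, and both counts rest on the same control libraries. The excess over the background is therefore a description and not a test of the list. Across the alternatives the number that fell ran from 6 to 10 and from 6 to 9; with the neighbouring trend removed 1 rose and 7 fell, and 2 rose and 6 fell. Brca1, which shields stalled forks and directs repair by recombination, fell from 14.9 ± 0.135 FPKM to 11.2 ± 0.484 and 11.8 ± 0.244 (log2 −0.39 and −0.32, SE 0.04, adjusted p = 3.43e-05 and 6.67e-05). Brca2, which also protects stalled forks, fell from 5.07 ± 0.147 to 3.84 ± 0.263 and 4.11 ± 0.114 FPKM (log2 −0.33 and −0.25, SE 0.05, adjusted p = 0.000514 and 0.00157).

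Of 33 mitotic genes, which peak after S phase, 1 rose and 9 fell with shCNKSR2_1, 2 rose and 17 fell with shCNKSR2_2, and 0 were higher and 4 lower in shCNKSR2_2 than in shCNKSR2_1 (1 and 9 at an unadjusted p under 0.05). The shares called were 30.3%, 57.6% and 12.1%, beside 32.8%, 48.2% and 20.5% of all genes, and the 4 lower between the hairpins are near the 11.4% of all genes called lower there. The medians were −0.06, −0.09 and −0.04. With shCNKSR2_1 the split was 4 higher and 7 lower after median-ratio rescaling, 5 and 11 with the GC trend removed and 6 and 8 with the neighbouring trend removed; with shCNKSR2_2 the last 2 gave 4 and 15, and 4 and 12. Birc5, the survivin subunit of the chromosomal passenger complex, fell by 0.41 (SE 0.04, adjusted p = 2.09e-05) and 0.51 (SE 0.04, adjusted p = 1.96e-06). Top2a, the topoisomerase that untangles sister chromatids, fell by 0.26 (SE 0.04, adjusted p = 0.000864) and 0.43 (SE 0.04, adjusted p = 1.4e-05). Cdk1, the mitotic kinase, rose instead with shCNKSR2_2 from 66.8 ± 1.30 to 74.4 ± 0.198 FPKM (log2 0.15, SE 0.03, adjusted p = 0.0034).

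Upstream of S phase, 9 G1 control genes gave 2 higher and 3 lower with shCNKSR2_1, and 1 higher and 2 lower with shCNKSR2_2; after median-ratio rescaling the splits were 2 and 1, and 2 and 2. The shares called were 55.6% and 33.3% of 9 genes, beside 32.8% and 48.2% of all genes. Ccnd1, cyclin D1, was 74.7 ± 0.885 FPKM in shControl, 89.2 ± 11.7 in shCNKSR2_1 and 117 ± 1.83 in shCNKSR2_2. In shCNKSR2_1 it stood at 76.0, 98.4 and 93.3 FPKM, so the replicate with low S phase genes was also the one nearest the controls here. Ccnd1 rose with shCNKSR2_2 by 0.64 (SE 0.07, adjusted p = 5.3e-05). Its rise of 0.24 with shCNKSR2_1 (SE 0.07, adjusted p = 0.0268) was lost without any 1 of 5 libraries (all 3 controls, shCNKSR2_1 replicates 2 or 3; 0.0564 to 0.094), and was 0.02 (adjusted p = 0.711) without both shCNKSR2_1 replicates 2 and 3. Cdk6, a kinase partner of D cyclins, fell by 0.47 and 0.44 (SE 0.05, adjusted p = 5.6e-05 and 4.52e-05). Myc, a growth-induced transcription factor, fell with shCNKSR2_2 from 60.0 ± 1.06 to 49.2 ± 3.26 FPKM (log2 −0.28, SE 0.05, adjusted p = 0.000535).

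**Figure D5:**
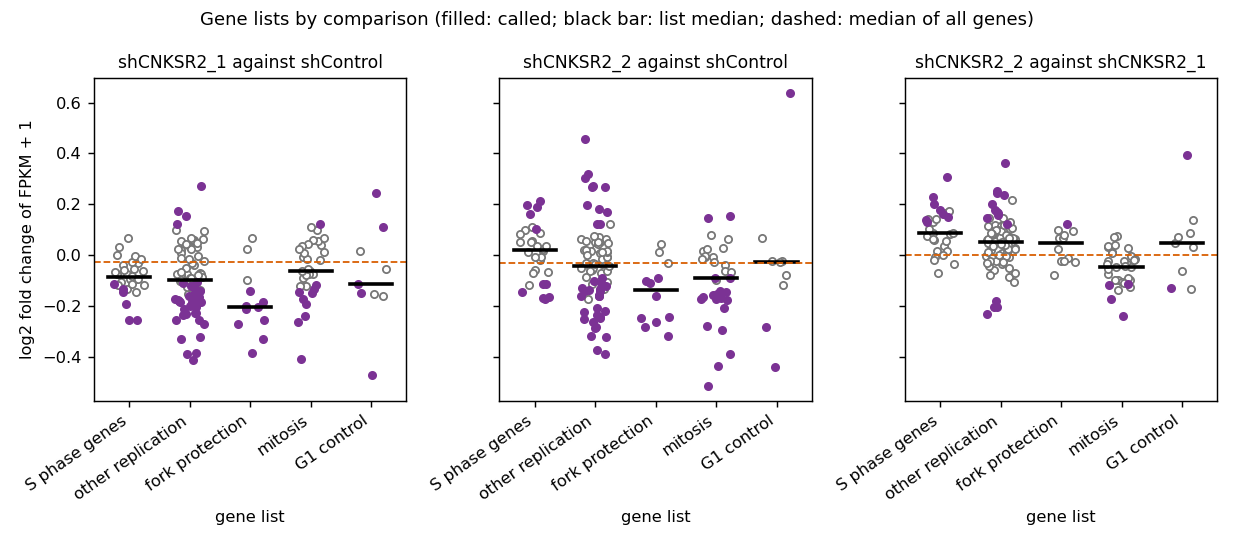
Log2 fold change of FPKM + 1 (y axis) of every measured gene of the S phase, other replication, fork protection, mitosis and G1 control lists in the 3 comparisons; filled points are called genes, black bars list medians and the dashed line the median of all genes. The S phase genes have medians of −0.09, 0.02 and 0.09, and the fork protection genes −0.20, −0.14 and 0.05. The fork protection genes are also shown among the other replication genes.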

How the data were processed

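RNA of 9 cultures was extracted with Qiagen miRNeasy and made into TruSeq Stranded mRNA libraries, per the labels' protocols. STAR 25.1b, Cufflinks 2.2.1 and build mm9 are named in the submitters' processing notes. The authors deposited 1 table of FPKM values; every row exceeded 1 FPKM in all 9 libraries, so genes silent in any library are outside it, and depth is not known. FPKM was analysed as log2(FPKM + 1) with limma 3.58.1 in R 4.3.3 (3 group means, variance trend, two-sided), which understates changes of low genes. Adjusted p-values are Benjamini-Hochberg over 10340 genes, and the fit was tested on simulated data. The p-values measure the spread between cultures. The members and lists were chosen with earlier results of these data known. Members called in at least 2 comparisons, or among the 6 largest changes, are given by library; from other lists at most 4 higher and 4 lower genes were eligible by size of change, and 1 of these is not reported here. Transcript GC content and gene order came from GENCODE by symbol (9874 genes, 95.5%). There were 20 alternatives: pseudocount, low-value filter, variance trend, 3 rescalings (median-ratio, quantile, GC), replicate block, fewer groups, and each library left out. Of these, 3 were chosen after seeing the data: leaving out shCNKSR2_1 replicates 2 and 3, leaving out the 3 libraries of positive GC slope, and subtracting the mean deviation of 10 measured genes on each side.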

Additional observations from a re-analysis of the deposited data

How the results depend on the processing

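Of the 25 calls among the 30 S phase genes, 4 were kept in all 20 alternatives: Cdc6, Pole and Tyms with shCNKSR2_1, and Rrm2 between the hairpins. With shCNKSR2_2 against shControl 0 of 11 were. With the neighbouring trend removed, Cdc6 under shCNKSR2_2 changed sign to 0.012, and the cause was not tested. Leaving out single libraries gave 6 to 14 calls among the 30 with shCNKSR2_2, where all genes gave 4075 to 5355. Between the hairpins it gave 2 to 10, where all genes gave 1208 to 2333. For shCNKSR2_1 the same gave 6 to 11 mitotic and 1 to 6 G1 control calls. Between the hairpins it gave 7 to 18 for other replication, 0 to 1 for fork protection, 2 to 7 for mitosis and 1 to 3 for G1 control. Quantile normalization gave 10 S phase calls with shCNKSR2_1 and 2 mitotic calls between the hairpins, beside 31.7% and 20.7% of all genes called. With the GC trend removed, calls between the hairpins were 16 among the 30, 26 for other replication and 3 for fork protection. Mitotic calls with shCNKSR2_1 were 16. Calls over all genes rose as well in that setting, to 28.5% between the hairpins and 40.1% with shCNKSR2_1. Median-ratio rescaling gave 3 G1 control calls with shCNKSR2_1, and fitting only the groups compared gave 2. Without shCNKSR2_1 replicates 2 and 3, that hairpin had 1860 calls over all genes, 4 mitotic and 1 G1 control; between the hairpins 13 S phase and 0 fork protection genes were called. Without the 3 libraries of positive GC slope, calls between the hairpins were 1230 over all genes, 5 among the 30, 9 for other replication and 2 for mitosis, and 3 G1 control genes were called with shCNKSR2_1. With the neighbouring trend removed they were 2240 over all genes (22.7%), 15 among the 30, 3 for fork protection and 2 for mitosis. The same setting gave 2 G1 control calls for shCNKSR2_1. Quantile normalization split all genes into 1661 higher and 1615 lower with shCNKSR2_1 and 2533 and 2296 with shCNKSR2_2; removal of the GC trend gave 2044 and 1915, and 2851 and 2506. Removal of the neighbouring trend gave 2625 and 2367 with shCNKSR2_2.

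With the replicate block the 3 comparisons called 6, 11 and 9 of the 30 genes, and 3205, 4827 and 1944 of all genes. The main fit did not pair the samples by their shared replicate numbers. Over 9 same-numbered pairs, deviations from the group means correlated between −0.319 and 0.428, with 5 pairs over 0.1. Pairs of different number reached as far. For shControl replicate 3 the correlation was −0.325 with shCNKSR2_2 replicate 2 and 0.445 with shCNKSR2_2 replicate 1. For genes that were not called, the 95% intervals give the sizes of change that 3 cultures a group leave possible.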
